A study of Mus musculus with 12 samples.

Results

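The BCL2 family genes described here are 10 of the 32285 genes counted in 6 single-cell libraries, and all 10 were measured. They were taken by name: the pro-survival members Bcl2, Bcl2l1 (BCL-XL), Mcl1, Bcl2a1b and Bcl2a1d (both A1), the effectors Bax and Bak1, and the BH3-only members Bcl2l11 (BIM), Bbc3 (PUMA) and Pmaip1 (NOXA). Each library came from the B16-F10 melanoma of 1 Rag1-deficient mouse (B6.129S7-Rag1tm1Mom/J, which makes no T or B cells of its own but keeps NK and myeloid cells). All 6 mice were given Pmel CD8+ T cells marked by Thy1.1, whose receptor sees a melanocyte antigen. Before transfer the T cells had been cultured with vehicle for 3 mice (control) and with CAL-101, an inhibitor of the delta form of phosphoinositide 3-kinase, for the other 3. Live CD45.2+ cells, a gate that takes in transferred and host leukocytes, were then sorted from each tumour. The mouse is the replicate, but the labels do not say whether the T cells of 1 group came from 1 culture or several, and in that respect the p-values below measure only the spread between these mice. Mouse age is not stated in the labels.

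Cells die by the mitochondrial route when BAX and BAK open the outer membrane of the mitochondrion. The pro-survival proteins hold BAX and BAK in check, and the BH3-only proteins bind and block the pro-survival ones or act on BAX and BAK directly. In lymphocytes BCL2 is known for long-lived resting and memory cells and BIM for the death of cells that lose cytokine support, while MCL1 and A1 are known in activated lymphocytes and neutrophils, and phosphoinositide 3-kinase signalling through AKT restrains the FOXO factors, which can switch on Bcl2l11 and Bbc3.

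Sequences upstream of the start sites are shown for 2 reasons: to show how alike both A1 genes are, since reads from near-identical copies may be split or lost in counting, and to show the stretch before Bcl2, the member with the largest log2 difference over all T cells, and before its opponent Bcl2l11. They were taken from RefSeq (GRCm38.p6, the assembly also called mm10), where 9 of the 10 members had an entry; Pmaip1 is named only. For the A1 pair, capitals mark bases that differ or are missing in the other copy, over chr9:89199023-89199228 (plus strand) and chr9:88731851-88732050 (minus strand).
Bcl2a1b: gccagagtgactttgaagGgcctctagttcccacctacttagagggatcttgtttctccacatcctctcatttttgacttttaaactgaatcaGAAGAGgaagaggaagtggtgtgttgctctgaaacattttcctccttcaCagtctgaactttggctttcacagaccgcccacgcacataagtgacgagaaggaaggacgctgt
Bcl2a1d: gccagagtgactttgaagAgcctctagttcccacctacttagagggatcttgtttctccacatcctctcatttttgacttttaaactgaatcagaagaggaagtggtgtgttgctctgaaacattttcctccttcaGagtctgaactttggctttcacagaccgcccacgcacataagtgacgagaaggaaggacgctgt
The 206 aligned columns held 198 identical bases, 2 substitutions and 6 bases missing from the Bcl2a1d copy (96.1% identical). The aligned part ends 44 bases before the annotated start of Bcl2a1b and at that of Bcl2a1d. The transcripts themselves were not compared here, and the counts of Bcl2a1b and Bcl2a1d are uncertain one by one. The other copies, Bcl2a1a and Bcl2a1c, stood below 1 CPM (the gene's UMIs scaled to the UMIs of all genes in the same cells) in T cells of all mice. In neutrophils Bcl2a1a stood at 166, 222 and 229 CPM in control mice and 140.1, 167 and 134 in CAL-101 mice, above Bcl2a1d in every mouse.

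The 250 bases before Bcl2 (chr1:106714291-106714540, minus strand) and before Bcl2l11 (chr2:128125788-128126037, plus strand) were searched on both strands for GTAAACA, the core that FOXO factors bind, and TGACGT, a half-site of the cyclic AMP response element; capitals mark the matches.
Bcl2: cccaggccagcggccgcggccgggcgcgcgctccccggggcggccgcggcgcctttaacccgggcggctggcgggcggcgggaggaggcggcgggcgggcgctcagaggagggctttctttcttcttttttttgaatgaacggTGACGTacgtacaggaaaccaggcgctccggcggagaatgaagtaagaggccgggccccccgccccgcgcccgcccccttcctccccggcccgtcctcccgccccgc
Bcl2l11: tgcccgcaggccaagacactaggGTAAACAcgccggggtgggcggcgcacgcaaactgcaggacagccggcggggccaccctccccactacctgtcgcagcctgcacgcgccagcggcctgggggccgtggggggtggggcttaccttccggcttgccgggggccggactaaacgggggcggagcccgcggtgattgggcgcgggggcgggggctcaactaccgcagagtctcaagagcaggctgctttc
Bcl2 held 1 TGACGT, 101 bases before the start, and no GTAAACA. Bcl2l11 held 1 GTAAACA, 220 bases before its annotated start. Among all 32851 promoter windows, 6.47% held TGACGT and 3.17% held GTAAACA in those 250 bases; the one other match among the members was a GTAAACA in 1 of the 3 windows of Bbc3. The Bcl2 stretch held 36 CpG dinucleotides, against a median of 6 over all windows. A match describes letters only.

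The libraries held 6152 to 9147 cells and 75716841 to 97933109 RNA UMIs (unique molecular identifiers, which tag single captured transcripts) each. Of 45477 cells, the authors labelled 32861 as T cells (here with their CD8+ and CD4+ labels) and 11687 as NK cells, and placed all cells in 14 numbered clusters. Pairs of libraries shared 8 to 31 cell barcodes. The 7 T cell markers looked at summed to 10453 to 12673 CPM in the T cells of each mouse and to 773 to 1104 in NK cells, and the 7 NK markers to 4144 to 4574 in NK cells. In T cells those NK markers summed to 235, 409 and 307 in control mice and to 266, 94.8 and 93.7 in CAL-101 mice. Of the cells labelled T cells, 7.97, 16.6 and 9.78% in control mice and 9.32, 2.17 and 3.46% in CAL-101 mice lay in clusters 0, 7, 8, 9 and 13, in which most cells were labelled NK. Values below are CPM over all UMIs summed across the cells of a class or cluster in 1 mouse, written for control mice 1, 2 and 3 and then CAL-101 mice 1, 2 and 3.

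Bcl2 rose in the T cells of CAL-101 mice, and among the pro-survival members it was the only one past the threshold there. It stood at 299, 306 and 322 in control mice and at 450.5, 454 and 381 in CAL-101 mice. Every CAL-101 mouse lay above every control mouse, with means of 309 ± 12.1 and 428 ± 41.3 (SD, n = 3 each). The log2 difference was 0.43 (SE 0.07, edgeR adjusted p = 0.0062). Over clusters 1 to 5 alone, where NK markers summed to at most 87.5, it was 0.52 (edgeR adjusted p = 0.0039). Cells with over 20% mitochondrial UMIs made up 10.9, 17.2 and 8.33% of control T cells and 17.4, 11.1 and 16.8% of CAL-101 T cells, and without them and cells under 1000 UMIs the log2 difference was again 0.43 (edgeR adjusted p = 0.0075).

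None of the other 4 pro-survival members was called. Bcl2a1b stood at 299, 328 and 304 against 279, 288 and 279, with every CAL-101 mouse below every control mouse, and its log2 difference of -0.18 missed the threshold (SE 0.06, edgeR adjusted p = 0.0648). Bcl2a1d stood at 99.0, 115 and 94.9 against 78.4, 100.1 and 81.4, with 1 CAL-101 mouse inside the control range (log2 -0.29, SE 0.11, edgeR adjusted p = 0.0975). DESeq2 called both A1 genes lower, as did edgeR for Bcl2a1d without CAL-101 mouse 2. Bcl2l1 ranged from 161 to 208 and Mcl1 from 158 to 181, each with groups that overlapped (log2 -0.16 and -0.12, edgeR adjusted p = 0.288 and 0.161). Without CAL-101 mouse 2, where Bcl2l1 stood at 208, Bcl2l1 passed the threshold at a log2 difference of -0.28, and without CAL-101 mouse 1 the difference was -0.09 (edgeR adjusted p = 0.600).

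The effectors differed by less than the spread between mice. Bax stood at 174, 154 and 173 against 175, 161 and 174. Bak1, the other effector, stood at 42.4, 41.6 and 40.1 against 39.7, 38.3 and 46.6. Their log2 differences were -0.01 (SE 0.07) and -0.03 (SE 0.08), with edgeR adjusted p of 0.909 and 0.826.

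Of the BH3-only members, Pmaip1 rose. It stood at 25.0, 22.8 and 25.2 in control mice and at 37.2, 28.6 and 31.2 in CAL-101 mice, without overlap (log2 0.37, SE 0.10, edgeR adjusted p = 0.0313). That call was lost over clusters 1 to 5 alone (0.32, adjusted p = 0.0601) and without control mouse 1, 2 or 3 or CAL-101 mouse 1 or 3, where the log2 difference ranged from 0.26 to 0.39. Bcl2l11, whose product binds BCL2, stood at 216, 216 and 232 against 198, 216 and 211, with groups that overlapped (log2 -0.12, edgeR adjusted p = 0.186). Bbc3 was scarce, at 11.1 to 16.1, and also overlapped (log2 -0.30, SE 0.11, edgeR adjusted p = 0.0992). Without control mouse 2 Bbc3 passed the threshold at -0.41, and without control mouse 1 it was -0.19 (edgeR adjusted p = 0.296). Over clusters 1 to 5 alone Bbc3 gave -0.23 (edgeR adjusted p = 0.296) and Bcl2l11 -0.05 (edgeR adjusted p = 0.661). With clusters 1 to 5 given equal weight in every mouse, their log2 ratios of means were -0.03 and -0.02.

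In all, 2 of the 10 members were called higher in T cells and none lower. Over all 16734 genes tested, 9.46% were called higher and 19.1% in either direction, so the count of members called is near the background and is no result about the family; 9.63% of genes were called lower. Likewise 2 members lay above and 1 below without overlap, where all genes gave 24.5% and 15.1%.

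**Figure D1:**
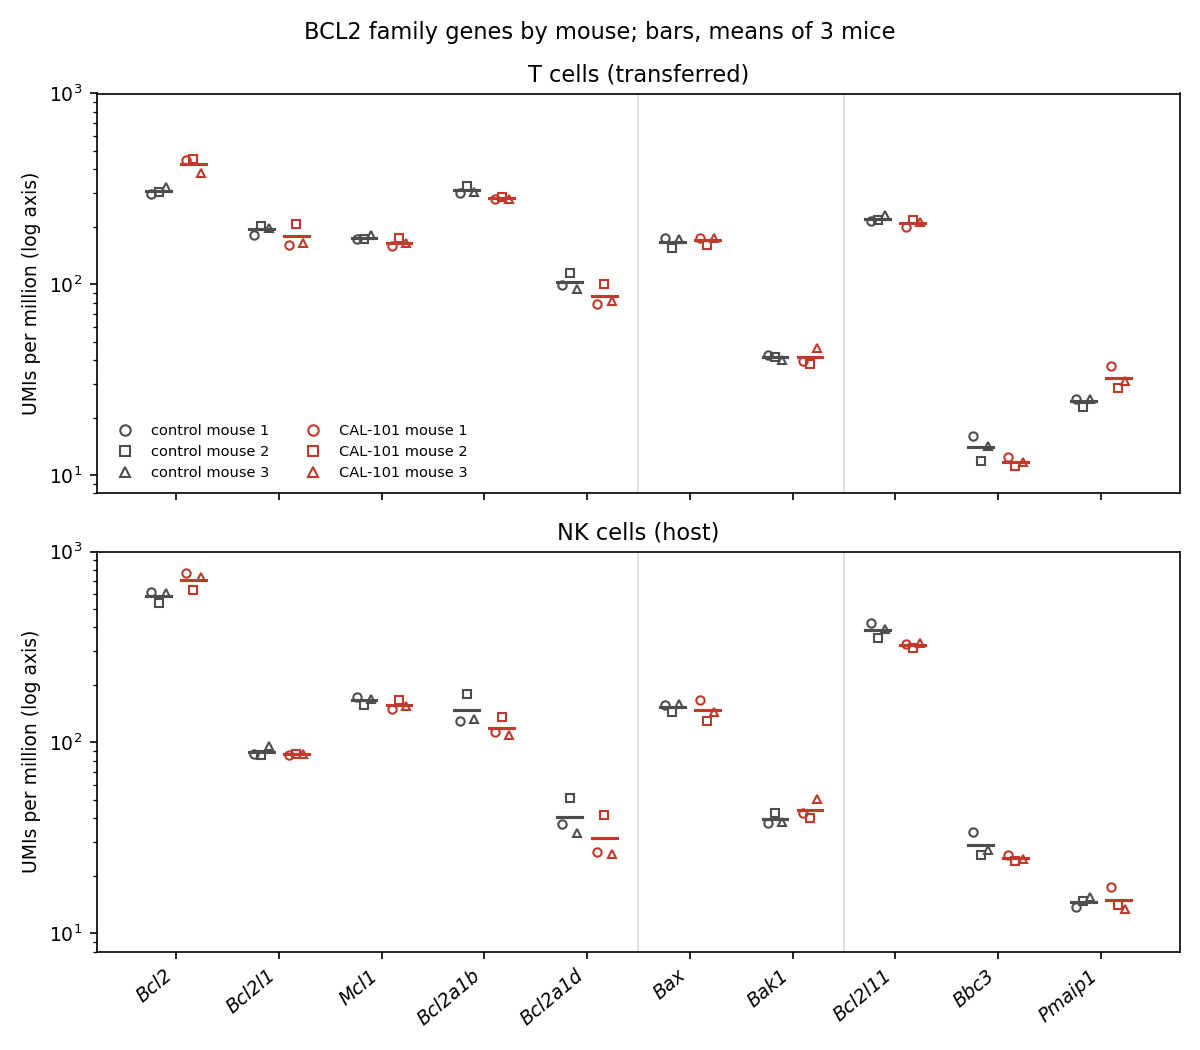
CPM (log axis) of the 10 members in the T cells and the NK cells of each mouse, with control and CAL-101 mice side by side and bars for the means of 3 mice; grey lines part the pro-survival, effector and BH3-only members. In T cells the CAL-101 mice stand above the control mice for Bcl2 (381 to 454 against 299 to 322) and Pmaip1, and the effectors overlap.

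Bcl2 was also compared inside single T cell clusters, since the groups differed in their make-up: cluster 3 held 1896, 823 and 1954 T cells in control mice and 172, 684 and 427 in CAL-101 mice, and cluster 5 held 179, 92 and 107 against 885, 1393 and 1271. Bcl2 was called higher in 4 of the 6 clusters. In cluster 4 it stood at 428, 371 and 417 against 649, 716 and 619.9 (log2 0.69, SE 0.08, edgeR adjusted p = 0.00032). In cluster 1 it stood at 689.6, 672 and 654 against 990.2, 976 and 1049.5 (log2 0.55, SE 0.08, edgeR adjusted p = 0.0020). Both calls held whichever mouse was left out. These are the T cell clusters with the most Bcl2, and both also carry much mitochondrial RNA, with a median of 16.3% of UMIs in cluster 4 and 13.2% in cluster 1.

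In cluster 2, the deepest, with a median of 25738 UMIs per cell, Bcl2 stood at 198, 179.9 and 199.9 against 260.0, 348 and 263 (log2 0.54, SE 0.11, edgeR adjusted p = 0.0168). In cluster 5 it stood at 373, 284 and 386 against 518, 498 and 439 (log2 0.43, SE 0.10, edgeR adjusted p = 0.0297). No CAL-101 mouse fell within the control range in either cluster. The cluster 2 call was lost without control mouse 1 or 3 (log2 0.55 and 0.57) and the cluster 5 call without control mouse 1 or 2 or CAL-101 mouse 1 or 2 (0.32 to 0.49).

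Cluster 3 gave the smallest difference among clusters 1 to 5. Bcl2 stood there at 278, 232 and 268 against 278, 365 and 331, with the lowest CAL-101 mouse level with the highest control mouse (log2 0.26, SE 0.10, edgeR adjusted p = 0.170). Cluster 6, with a median of 865.5 UMIs per cell and 34.9% mitochondrial RNA, gave 0.12 (SE 0.23). Whether the change differed between clusters was not tested. When clusters 1 to 5 were given equal weight in every mouse, Bcl2 came to 375 ± 24.3 in control mice and 553 ± 23.5 in CAL-101 mice, a log2 ratio of means of 0.56.

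Pmaip1 was called in 1 cluster. In cluster 1 it stood at 31.4, 31.9 and 30.6 against 55.1, 47.9 and 54.8 (log2 0.71, SE 0.10, edgeR adjusted p = 0.0017), and that call held whichever mouse was left out. In cluster 5 it stood at 19.4, 20.1 and 30.9 against 44.6, 28.5 and 35.9, so that the groups overlapped (log2 0.61, SE 0.22, edgeR adjusted p = 0.138). No other member passed the threshold in a T cell cluster: of 58 tests of a member in a cluster, 5 gave a call, all higher. All genes were called higher in 5.72, 5.94, 3.26, 3.68, 2.45 and 0.299% of tests in clusters 1 to 6.

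**Figure D2:**
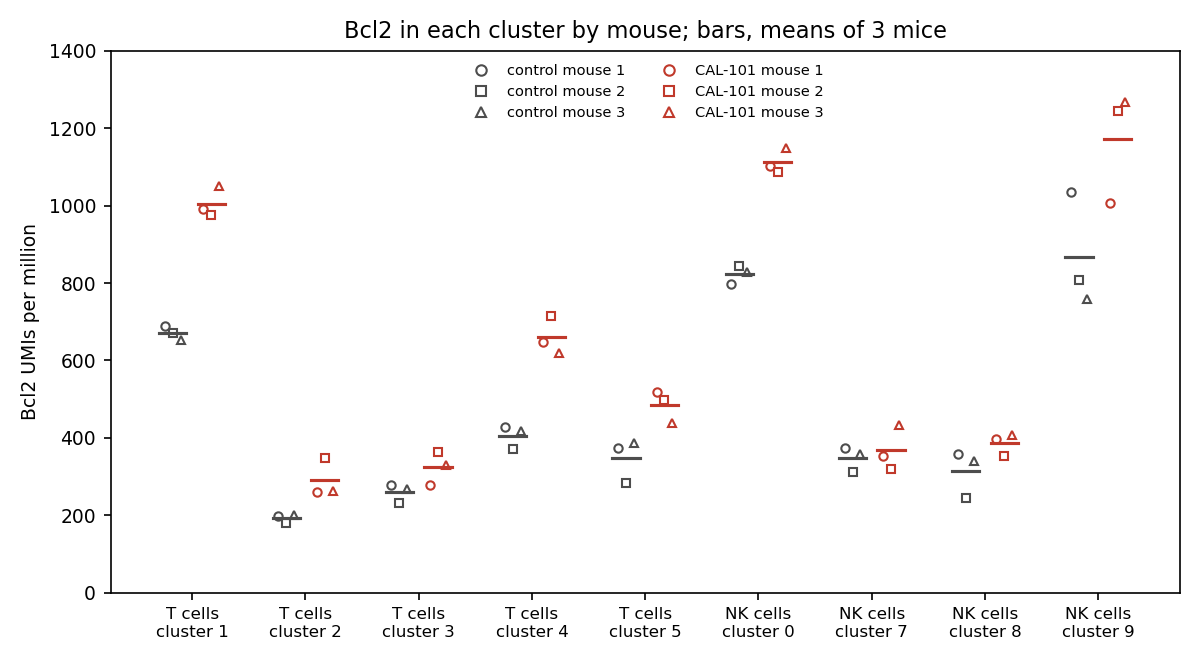
Bcl2 CPM in T cell and NK cell clusters, 1 point per mouse and bars for the means of 3 mice. CAL-101 mice stand above control mice without overlap in T cell clusters 1, 2, 4 and 5 and in NK cluster 0 (1087 to 1149 against 798 to 844), and they overlap in NK cluster 7.

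The share of T cells with at least 1 Bcl2 UMI moved the same way. With each cell thinned to 1600 UMIs, which left out 1181 control and 1434 CAL-101 cells, the share was 36.7, 39.99 and 39.4% in control mice and 47.3, 49.8 and 44.9% in CAL-101 mice. Without thinning it was 75.1 ± 1.35 and 79.0 ± 1.37%. For Pmaip1 the thinned shares were 4.10 ± 0.645 and 5.86 ± 0.525%, and unthinned 20.9 ± 1.96 and 27.3 ± 1.91%. Neutrophils, which hold little Bcl2, gave 5.50% for Bcl2 at the same thinned depth, the level to hold against free RNA in the droplets. Their median depth was 3175.5 UMIs per cell, and that of T cells 9136. For Pmaip1 the neutrophil share was 13.5%, above that of T cells, so neutrophils give no such baseline for it.

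NK cells, which came from the host, carried more Bcl2 (540.3 to 772 CPM) and Bcl2l11 (312 to 423) than T cells (299 to 454 and 198 to 232). Bcl2 in NK cells stood at 614, 540.3 and 609.7 in control mice and 772, 625 and 736 in CAL-101 mice, without overlap, but the difference missed the threshold over the whole class (log2 0.24, SE 0.08, edgeR adjusted p = 0.112). In cluster 0, which held most NK cells, it stood at 798, 844 and 828 against 1103, 1087 and 1149. Every CAL-101 mouse there was above every control mouse (log2 0.41, SE 0.06, edgeR adjusted p = 0.0011), and the call held whichever mouse was left out. In cluster 7 it stood at 375, 311 and 357 against 352, 318 and 433, which overlapped (log2 0.04, SE 0.11).

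Bcl2l11 was the only member called over all NK cells, and it fell. It stood at 423, 352 and 394 in control mice and 329, 312 and 333 in CAL-101 mice, without overlap (log2 -0.29, SE 0.07, edgeR adjusted p = 0.048). This call was lost without control mouse 1 or 3 or any CAL-101 mouse (log2 -0.24 to -0.31), over clusters 0, 7, 9 and 13 alone (-0.25, edgeR adjusted p = 0.136), without TMM scaling (-0.26, adjusted p = 0.0739) and after a filter on cell quality (-0.29, adjusted p = 0.0507). In the same NK cells 7 of 7 monocyte and macrophage markers were detected. They summed to 266, 269 and 298 CPM in control mice and 198, 201 and 177 in CAL-101 mice. In T cells the same 7 markers summed to 462 to 843. In NK cells of cluster 8 they summed to 76.7 to 296 without any UMI of Lyz2 or C1qa. This sum alone therefore does not show myeloid cells among the NK cells. The 5 melanoma markers summed to 1.85, 2.45 and 3.59 against 78.5, 14.9 and 4.70 in NK cells. Cells with over 20% mitochondrial UMIs made up 3.14, 3.60 and 3.13% of control NK cells and 3.91, 10.5 and 7.75% of CAL-101 NK cells, and 95.8, 96.6 and 94.6% against 94.2, 82.5 and 90.3% lay in clusters 0, 7, 8, 9 and 13. The part of these in the lower Bcl2l11 was not tested beyond the filter on cells and the subset of clusters above. Within cluster 0 the monocyte and macrophage markers summed to 152, 167 and 180 against 214, 139 and 183. Bcl2l11 stood there at 526, 473 and 488 against 401, 439.8 and 449, and its log2 difference of -0.23 did not pass (edgeR adjusted p = 0.0621). Bcl2a1b (log2 -0.34) and Bcl2a1d (-0.45) were lower on average but overlapped, with edgeR adjusted p of 0.170 and 0.224. Without control mouse 2 they were -0.18 and -0.26, and without CAL-101 mouse 2 Bcl2a1d was -0.69 (edgeR adjusted p = 0.0615). Bcl2l1, Mcl1, Bax, Bak1, Bbc3 and Pmaip1 had log2 differences between -0.25 and 0.13, none called.

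Of the 14028 genes tested in NK cells, 1.92% were called lower, 2.97% higher and 4.89% in either direction. One member lay above and 1 below without overlap, where all genes gave 16.3 and 10.5%. Of 36 tests of a member in an NK cluster, Bcl2 in cluster 0 was the only call, where 2.76% of genes were called higher; in clusters 7, 8 and 9 these shares were 0.345, 0.0 and 0.319%. CAL-101 mouse 2 gave 571 NK cells, against 916 to 3498 in the other mice, so its NK values rest on the fewest UMIs.

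**Figure D3:**
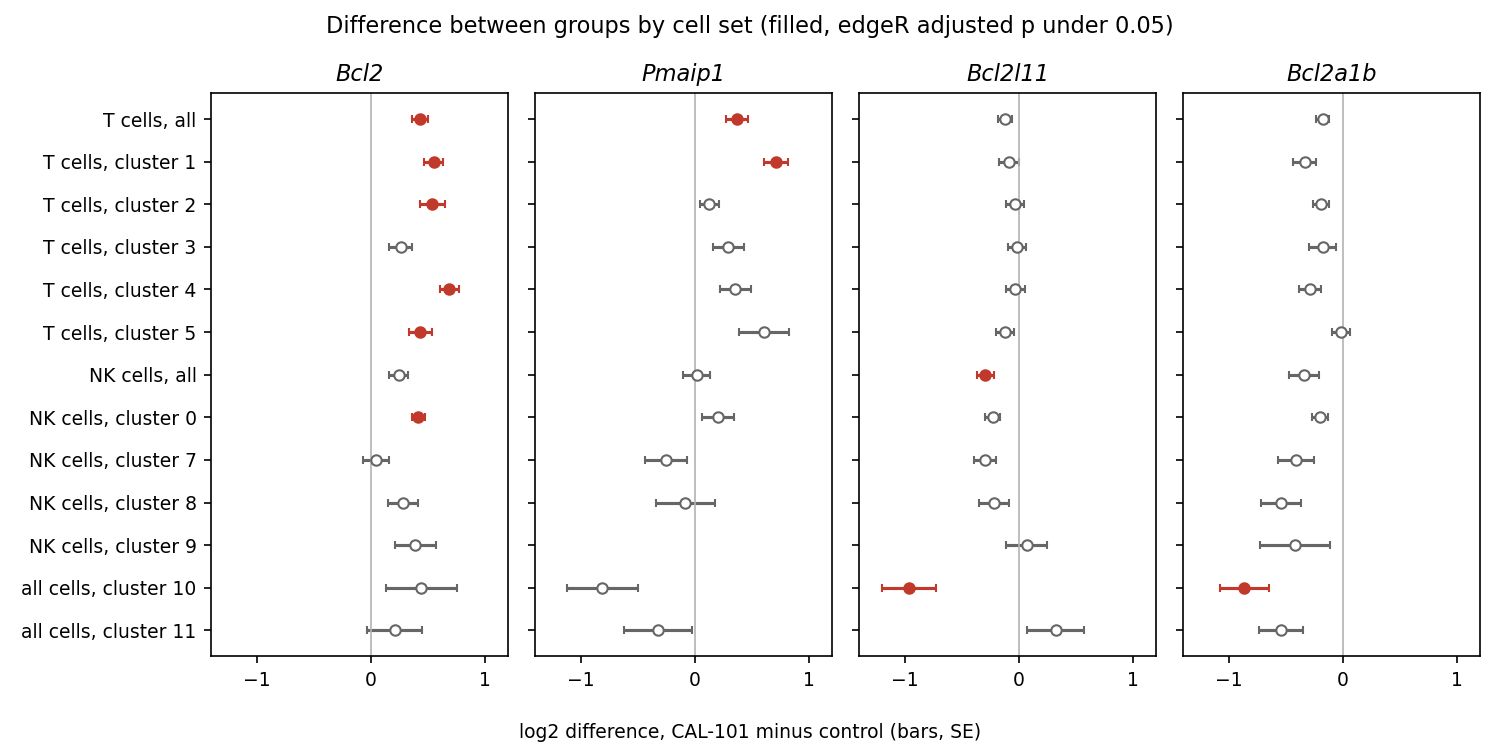
Log2 difference between CAL-101 and control mice with its standard error for Bcl2, Pmaip1, Bcl2l11 and Bcl2a1b in each cell set; filled points passed an edgeR adjusted p of 0.05. Bcl2 points lie right of 0 in all sets shown, while Pmaip1 is called in T cells and T cell cluster 1, Bcl2l11 in NK cells and cluster 10, and Bcl2a1b in cluster 10.

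Whether the 2 classes differed in their response was tested on the difference between T and NK cells of the same mouse. None of the 10 members passed with limma (adjusted p under 0.05), where 4.1% of 13901 genes did. At an unadjusted limma p under 0.05, 2683 of the 13901 genes passed, and 1 member did. That was Pmaip1, whose T cell change exceeded the NK change by 0.38 on the log2 scale (SE 0.10, limma adjusted p = 0.0806). For Bcl2 the T cell change exceeded the NK change by 0.20 (SE 0.10, limma adjusted p = 0.354), and by 0.08 without CAL-101 mouse 2 (limma adjusted p = 0.627), so that a larger response of T cells was not shown.

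Bcl2 and Bcl2l11 were also set against each other within each mouse, a measure chosen after their values were seen and given without a test. T cells held 1.39, 1.42 and 1.39 Bcl2 UMIs per Bcl2l11 UMI in control mice and 2.27, 2.10 and 1.80 in CAL-101 mice. NK cells held 1.45, 1.54 and 1.55 against 2.35, 2.00 and 2.21. Neither class had overlapping groups. Within T cell clusters the mean ratio was 2.20 in control and 3.44 in CAL-101 mice in cluster 1, 1.60 and 2.63 in cluster 4, and 1.28 and 1.55 in cluster 3. A UMI ratio is no ratio of proteins, and it compares mice, not the amounts of both transcripts.

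**Figure D4:**
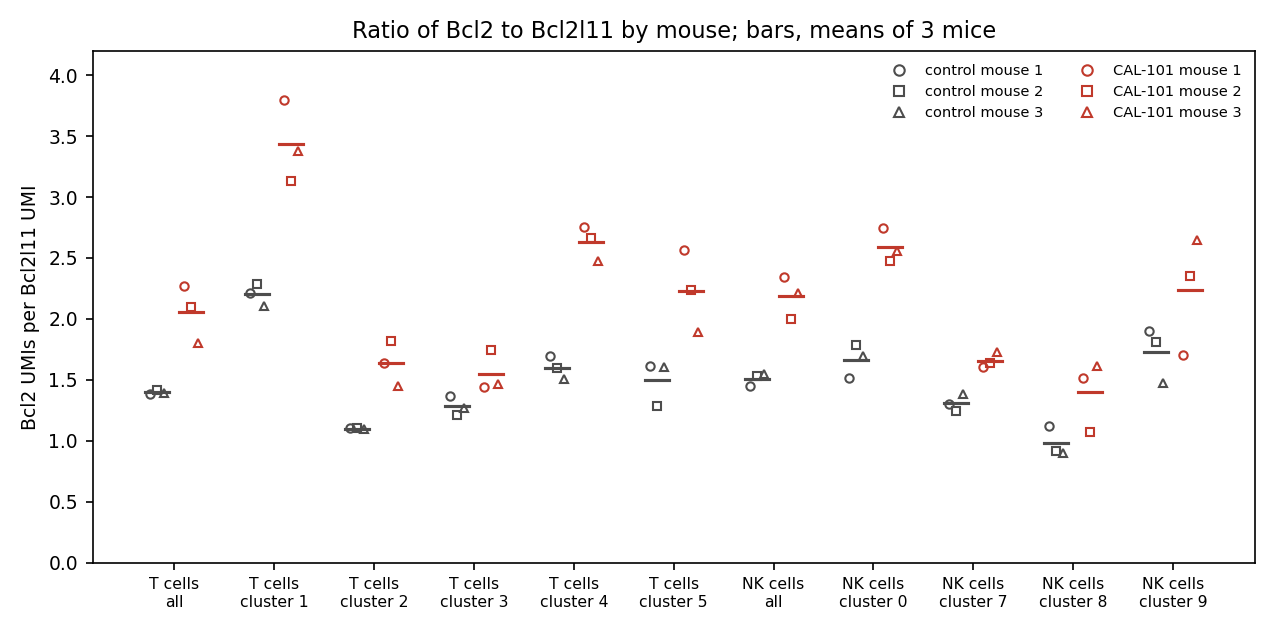
Bcl2 UMIs per Bcl2l11 UMI in each mouse for T and NK cells and their clusters, with bars for the means of 3 mice. Control mice lie at 1.39 to 1.42 in T cells and 1.45 to 1.55 in NK cells, below all CAL-101 mice of the same class.

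Across clusters the members followed different patterns, described here without tests since Seurat clusters are built from expression. Bcl2 was highest in NK clusters 9 and 0 and T cell cluster 1, with medians over mice of 994, 934 and 831 and ranges that overlapped (821 to 1304, 785 to 1140 and 648 to 1047). T cell clusters 4 and 5 followed, with medians of 524 and 413, and cluster 2, at 179.9 to 348, did not reach the range of cluster 1. Cluster 10, where 6 neutrophil markers summed to 19748 to 68250 CPM, had a median of 162. In cluster 11, 7 dendritic cell markers summed to 724 to 3561 and 7 monocyte and macrophage markers to 1290 to 3677. Its 7 T cell markers summed to 1943 to 7490, and its median of Bcl2 was 219.8. Bcl2l11 was also highest in clusters 9 and 0 (461 to 584 and 398 to 522), and in cluster 2 it stood at 158 to 191. Cluster 9 had a median of 2066.5 UMIs per cell and 8.55% mitochondrial RNA, against 6277 and 2.11% in cluster 0.

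Mcl1 was nearly flat over lymphocytes and high in myeloid cells. Its medians lay between 113 and 187 in clusters 0 to 9, were 459 in cluster 11 and 1365 in cluster 10, without overlap with any lymphocyte cluster. Bcl2a1b also led in cluster 10 and cluster 11 (medians 578 and 523, ranges that overlapped), and among T cell clusters stood higher in clusters 2, 3 and 5 (277 to 465) than in clusters 1 and 4 (124 to 182). Bcl2l1 ran the other way among T cells, with medians of 304 and 287 in clusters 4 and 1 and 145 to 208 in clusters 2, 3 and 5. Bax was lower in clusters 1 and 4 (61.7 to 90.7) than in clusters 2, 3 and 5 (165 to 260.1). Clusters 1 and 4 also had medians of 2823 and 4762 UMIs per cell and 13.2 and 16.3% mitochondrial RNA. Clusters 2, 3 and 5 had 25738, 14660 and 13680.5 UMIs and 3.08, 2.90 and 3.14%. CPM does not remove such differences between clusters, and their part in these patterns was not tested.

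The genes whose pattern over the 13 clusters of at least 100 cells was most like that of Bcl2 were Tut4, Fryl and Nfatc3 (Pearson r of 0.972, 0.968 and 0.964 among 6154 genes). For Bcl2l11 they were Nabp1, Ripor2 and Spata13 (0.981, 0.979 and 0.978), and for Bcl2a1b Lsp1, Jaml and Evi2a (0.915, 0.915 and 0.890). Points share libraries and differ in depth, so these are descriptions. Among the members, Bcl2a1b and Bcl2a1d were most alike (r = 0.961).

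**Figure D5:**
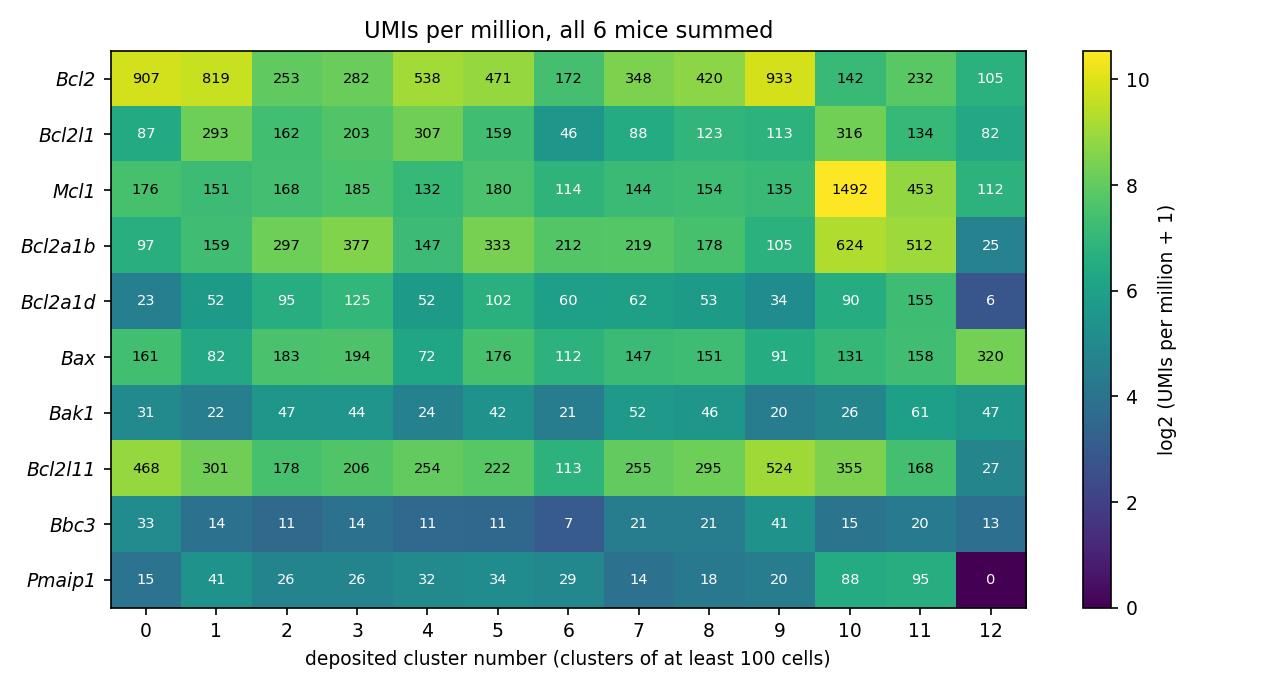
CPM of each member in each cluster of at least 100 cells, summed over all 6 mice and coloured by log2 (CPM + 1). Mcl1 reaches 1492 in cluster 10 and stands at 114 to 185 in clusters 0 to 9, while Bcl2 is highest in clusters 9, 0 and 1.

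Neutrophils gave large differences of Bcl2a1b and Bcl2l11, in few cells. The cells labelled neutrophils numbered 206, 36 and 73 in control mice and 13, 45 and 41 in CAL-101 mice, too few to test. Bcl2a1b stood there at 824, 864 and 1008 against 368, 513 and 487, and Bcl2l11 at 353, 566 and 415 against 193, 184 and 317, each without overlap. How many of all genes lay without overlap in these cells was not counted. The 6 neutrophil markers summed there to 69797, 105460 and 70571 CPM against 108830, 38991 and 52584, and the part of that was not tested. Mcl1, on which neutrophils are known to depend, stood at 2073, 1792 and 2040.0 against 1471, 2173 and 2194, with groups that overlapped.

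After these values were seen, all 726 cells of cluster 10 were tested. Bcl2a1b fell from 688, 659 and 823 to 342, 421 and 497 (log2 -0.86, SE 0.21, edgeR adjusted p = 0.0312), and Bcl2l11 from 372, 493 and 455 to 173, 279.5 and 254 (log2 -0.96, SE 0.24, edgeR adjusted p = 0.0312). Of 9 members tested 2 were called, where 3.24% of genes were called lower. Bcl2a1d was not called there (log2 -0.55, SE 0.34, edgeR adjusted p = 0.328). The calls of Bcl2a1b and Bcl2l11 were lost without control mouse 1, 2 or 3 or CAL-101 mouse 3 (log2 -0.74 to -1.04). The make-up of the cluster moved with the group: its 6 neutrophil markers summed to 44964, 68250 and 43153 against 40349, 19748 and 21757 and its 7 T cell markers to 3131, 2585 and 2389 against 6893, 5167 and 6864. The part of that in the lower Bcl2a1b and Bcl2l11 was not tested. In cluster 11, 0 of 9 members and 0.0% of genes were called by edgeR, with 1 member at an unadjusted p under 0.05.

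Genes around the family were read from lists chosen by function. Over all genes tested in T cells 9.46% were called higher and 9.63% lower, and the counts of these short lists are to be read against those shares. Values of the list genes are given over the whole T or NK class only, not within clusters. The make-up of both classes by cluster differed between the groups, as shown above. The part of that make-up in the differences of the list genes was not tested. Of 14 tested other BCL2 relatives in T cells, 2 were higher and 2 lower, near the 19.1% called in either direction, with a median log2 difference of -0.25 against 0.002 over all genes. Bnip3l, a mitochondrial receptor for mitophagy, fell by 0.32 on the log2 scale from 112, 95.2 and 114 to 81.5, 94.7 and 88.1 (edgeR adjusted p = 0.0331), and the scarce Bik and Bcl2l15, at most 2.47 CPM, gave 0.45 and -0.54. None of 16 caspase and apoptosome genes was called in T cells. In NK cells Cycs (cytochrome c, which activates the apoptosome once released from mitochondria) was among those called higher, with a log2 difference of 0.45.

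The death receptor list split. Fas, the receptor, rose from 15.7, 20.5 and 13.04 to 51.0, 31.4 and 34.9 in T cells (log2 1.21, SE 0.21, edgeR adjusted p = 0.0067), and Fasl, its ligand, fell from 61.8, 62.6 and 71.2 to 40.7, 48.9 and 43.5 (log2 -0.59, SE 0.08, edgeR adjusted p = 0.0032). Neither pair of groups overlapped. Both are values over all T cells, and the part of the cluster make-up in them was not tested. Tradd, an adaptor of TNF receptors, rose by 0.48, and Cflar, an inhibitor of caspase 8, was the second of 2 genes called lower among 11, at -0.24.

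Of 16 upstream survival genes tested in T cells, 1 was higher and 5 lower, where 9.46% and 9.63% of all genes were; whether the list differs from other genes was not tested. Foxo1, a factor restrained by AKT, rose from 233, 231 and 243 to 302, 388 and 315 (log2 0.47, edgeR adjusted p = 0.0109). Foxo3, another FOXO factor, fell from 32.8, 27.9 and 33.1 to 25.9, 25.9 and 23.7 (log2 -0.35, edgeR adjusted p = 0.0162). Il7r, a chain of the interleukin-7 receptor, fell from 123, 138 and 116 to 70.5, 96.7 and 84.9 (log2 -0.62, edgeR adjusted p = 0.0096). Bach2 (log2 -0.69) and Pik3ip1 (-0.73) also fell. Of 12 p53 pathway genes tested in T cells, 0 were higher and 2 lower (Mdm4 and Zmat3, both -0.27), near the 19.1% of all genes called. Trp53 itself had a log2 difference of 0.20 and missed the threshold (edgeR adjusted p = 0.0529). Of 5 genes tested from a list drawn up around MCL1 turnover, Trib1 was higher (log2 0.76) and Fbxw7 lower (-0.19). Whether these genes act on MCL1 in these cells was not tested.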

How the data were processed

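RNA of live CD45.2+ tumour cells was counted in 6 droplet 3' libraries, 1 per mouse. The authors deposited unscaled UMI counts per gene and cell. Cell Ranger 7.1.0 made them, per the file headers; mm10 and Seurat are named in the submitters' processing notes. Counting of intronic reads, cell filters and the labelling method are not stated in those sources. The smallest deposited cell held 500 UMIs. Surface protein tags were not used here. The deposited cell table gave each cell its sample, cluster and label, used as given, with 3 T cell labels merged. No doublet caller was run. Of the gene identifiers, 32158 matched the table used for names.

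UMI counts were summed per mouse and class or cluster, where every mouse had at least 20 cells (NK cluster 13 had fewer). Sums were compared by the quasi-likelihood test of edgeR 4.0.16 in R 4.3.3 with TMM scaling, filterByExpr and a model of group alone; p-values were adjusted over all genes tested (Benjamini-Hochberg, threshold 0.05). The T minus NK difference of log2 CPM (prior count 2) was tested with limma 3.58.1. The tests were tried on simulated data first. Alternatives were DESeq2 1.42.0, no TMM, no filter on low counts, a filter on cells (at most 20% mitochondrial, at least 1000 UMIs), subsets of clusters, a replicate block and leaving out each mouse. Replicates of a group differed by more than sampling noise (chi-square per degree of freedom 8.5 to 44.3). Python 3.11.15 was used for shares, thinning and plots. The text names all 10 members, up to 3 called genes with the smallest p of each pathway list, and for Bcl2, Bcl2l11 and Bcl2a1b the 3 genes most alike across clusters; other list genes it names were chosen after their values were seen. A gene that this rule would name is not reported here. The members and lists were chosen with earlier results of these data known.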

Additional observations from a re-analysis of the deposited data

Results flagged for a closer look

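Bax, a pore-forming effector, lay above the control mice in every CAL-101 mouse of some cell sets and below them in every CAL-101 mouse of others. It was above in cluster 10 (115, 88.4 and 121 CPM against 178, 167 and 156), in cluster 11 (128, 142 and 131 against 166, 185 and 164) and in T cells of cluster 3 (192, 171 and 193 against 260.4, 196 and 215). It was below in NK cells of cluster 8 (168, 146 and 157 against 134, 119.8 and 134) and in T cells of cluster 4 (72.6, 73.2 and 90.6 against 67.7, 61.6 and 68.7). The log2 change in cluster 10 exceeded that in NK cluster 8 by 0.80 and that in T cell cluster 4 by 0.78. The change in cluster 11 exceeded them by 0.60 and 0.58, and that in T cell cluster 3 by 0.49 and 0.48. These differences were not tested, and Bax was called in none of the 5 sets by edgeR with all mice and cells. Bax was picked out by this pattern among the 10 members. How many of all genes lay without overlap in these sets was not counted. Over all T cells, 24.5% of genes lay above and 15.1% below, and over all NK cells 16.3% and 10.5%. In cluster 10 the 7 T cell markers summed to 3131, 2585 and 2389 against 6893, 5167 and 6864 CPM. In cluster 11, with 23 to 91 cells per mouse, the 7 T cell markers summed to 4082, 1943 and 5902 against 4194, 6712 and 7490. The 7 dendritic cell markers summed there to 3276, 3561 and 1498 against 3476, 1126 and 724. The part of these sums in the Bax of either cluster was not tested.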

How the results depend on the processing

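In T cells 2 members were called. DESeq2 called 4, clusters 1 to 5 alone gave 1, and leaving out 1 mouse gave 1 to 4. In NK cells 1 was called; the filter on cells, clusters 0, 7, 9 and 13 alone, and scaling without TMM gave 0, no filter on low counts 3, the replicate block 2 (Bcl2a1b and Bcl2a1d, edgeR adjusted p = 0.0433 and 0.0447), and leaving out 1 mouse 0 to 1. In T cell clusters the 5 calls became 8 without a filter on low counts and 3 to 6 without 1 mouse. In NK clusters the 1 call became 2 with DESeq2, 8 without the filter and 1 to 2 without 1 mouse. The T minus NK difference gave 0 members under every alternative run, of which the one on T clusters 1 to 5 against NK clusters 0, 7, 9 and 13 was chosen after seeing the data. In clusters 10 and 11 the 2 calls became 0 under the replicate block and 0 to 2 without 1 mouse. No member called by the main test changed its sign. The filter on cells left cluster 6 with too few cells, so it was not run there, and DESeq2 does not apply to the T minus NK difference. Deviations of same-numbered mice correlated at -0.252, -0.242 and 0.005 in T cells and 0.066, -0.024 and -0.095 in NK cells. These values show no pairing by replicate number, but with 3 mice per group they cannot exclude one. The replicate block is therefore given as an alternative. With that block Bcl2 in T cells stayed at 0.43 (edgeR adjusted p = 0.0357), Bcl2 in T cell cluster 2 was 0.52 (adjusted p = 0.0765), Bcl2l11 in NK cells was -0.29 (adjusted p = 0.0601), and calls over all genes in T cells fell from 1583 higher and 1611 lower to 728 and 767. Without control mouse 3 they were 664 and 765. In NK cells the 416 higher and 270 lower became 1 and 3 without CAL-101 mouse 3, 4 and 6 without control mouse 3, and 10 and 15 without control mouse 1. Without TMM, 2096 genes were higher and 1315 lower in T cells. Depth limits the scarce members: Bbc3 summed to 5459 UMIs over all T cells, where Bcl2 had 156355.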
